A study of Mus musculus with 6 samples.

Results

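The genes described here encode enzymes and a carrier that handle glutamine, glutamate, aspartate and alanine, together with the argininosuccinate enzymes of arginine synthesis. They were chosen by name, as the rows of the count tables whose Ensembl mouse gene identifier carries the symbol Glul, Glud1, Got1, Got2, Gpt, Gpt2, Ass1, Asl or Slc1a5 in an annotation of the build mm10. All 9 were found among 52636 genes in the tables, and all 9 had enough reads to be tested. RNA came from the parotid gland, a salivary gland made mostly of secretory acinar cells, of FVB mice, an inbred strain, aged 28 days. There were 3 irradiated samples, whose mice had received 5 Gy in 1 exposure, and 3 untreated samples. The dose text stands on the untreated samples too and was read as applying to the irradiated ones alone. The time between irradiation and collection is not given in the sources used here. Each sample was whole gland, so a lower level can mean fewer cells of a type or less RNA per cell, which cannot be told apart.

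Glutamine enters cells through carriers such as Slc1a5 and is converted to glutamate inside them. Glul, glutamine synthetase, runs the opposite way and fixes ammonia onto glutamate. Glud1, the mitochondrial glutamate dehydrogenase, converts glutamate to 2-oxoglutarate. Aminotransferases pass the amino group of glutamate on: Got1 in the cytosol and Got2 in mitochondria make aspartate, while Gpt in the cytosol and Gpt2 in mitochondria make alanine. Ass1 joins aspartate to citrulline and Asl cleaves the product to arginine and fumarate. In an acinar cell these amino acids are also building blocks of the secreted proteins of saliva.

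Promoter sequences matched 6 of the 9 genes in the RefSeq table for the build GRCm38.p6, each running from 250 bases before the RefSeq start to 50 bases from it on. The first shown belongs to Ass1, the gene with the largest difference between the groups, and the next to Got1 and Got2, the paralogous aspartate aminotransferases of the cytosol and of mitochondria. Capitals mark the motifs searched on both strands: the E-box CACGTG, the GC box GGGCGG, the CCAAT box, the TATA box spelled TATAAA and the core of an amino acid response element spelled TGATGNAA. The windows are chr2:31470020-31470319 on the plus strand for Ass1, chr19:43524556-43524855 on the minus strand for Got1 and chr8:95888352-95888651 on the minus strand for Got2.
Ass1: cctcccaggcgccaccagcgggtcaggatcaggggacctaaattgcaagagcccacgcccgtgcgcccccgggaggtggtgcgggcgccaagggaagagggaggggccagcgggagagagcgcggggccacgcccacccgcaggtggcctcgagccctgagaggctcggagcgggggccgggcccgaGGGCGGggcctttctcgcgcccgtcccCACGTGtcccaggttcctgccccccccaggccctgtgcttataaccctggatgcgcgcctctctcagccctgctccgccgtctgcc
Got1: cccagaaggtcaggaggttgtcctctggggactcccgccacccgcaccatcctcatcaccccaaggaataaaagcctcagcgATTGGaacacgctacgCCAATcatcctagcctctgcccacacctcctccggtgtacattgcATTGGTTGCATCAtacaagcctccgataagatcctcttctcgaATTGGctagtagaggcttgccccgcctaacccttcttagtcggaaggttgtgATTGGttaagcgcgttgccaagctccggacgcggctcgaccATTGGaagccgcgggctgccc
Got2: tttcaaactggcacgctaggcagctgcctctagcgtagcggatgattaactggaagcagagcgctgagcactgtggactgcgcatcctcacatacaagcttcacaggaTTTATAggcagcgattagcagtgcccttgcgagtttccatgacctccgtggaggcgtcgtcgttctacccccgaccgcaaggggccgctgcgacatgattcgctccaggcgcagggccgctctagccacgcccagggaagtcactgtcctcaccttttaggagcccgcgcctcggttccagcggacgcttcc

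The Ass1 window held a GC box at bases -63 to -58 and an E-box at -36 to -31, counted from the start, and no motif overlapped another in it. In human cancer cells an E-box of the ASS1 promoter is known to be bound by MYC and HIF1A. Of all 32851 promoters in RefSeq's set, 7.15% held CACGTG and 35.7% held GGGCGG. Of the 6 matched genes, Ass1 alone held the E-box, and Ass1, Glud1, Glul and Gpt2 held the GC box. The Got1 window held 6 CCAAT matches, where 37.4% of all promoters held at least 1, and a match of TGATGNAA at -102 to -95, which 3.97% of promoters held. The Got2 window held neither of these and had TATAAA on the opposite strand at -142 to -137, a motif found in 13.6% of promoters. The paired aspartate aminotransferases thus shared none of the searched motifs. In the mm10 annotation used here for symbols and coordinates, Ass1 starts at 31470207 and Got2, on the minus strand, at 95888547. Both lie upstream of the RefSeq starts. The annotation behind the deposited counts is not given. The Ass1 motifs and the Got2 TATAAA match thus lie inside those annotated genes. These matches describe letters in a window and were not tested for function.

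Each library held between 7108359 and 15036193 reads counted in genes. Irradiated replicate 2 stood apart: it was the shallowest, 10.01% of its reads were unaligned against 3.75% to 4.33% elsewhere, and 184 reads were set aside for low alignment quality, against 342749 to 491591 in the other libraries. The acinar markers summed to 372230 to 472350 CPM in irradiated and 412570 to 495560 CPM in untreated libraries, so the labelled tissue was present in all. Bpifa2 and Amy1, secreted salivary proteins, made up most of that sum and overlapped between the groups. Of the 10 acinar markers 7 had negative log2 fold changes, 4 were lower in every irradiated library and 1, Car6, was called lower. Across all genes tested, 10.6% were lower in every irradiated library. Prol1, another acinar marker, had 442 CPM in irradiated replicate 2 and 32.8 to 40.9 CPM in the other libraries. The cause of this difference was not tested. CPM (counts per M reads) here use the library's counts in the 12885 genes tested and its TMM factor, a scaling that corrects for composition. The 9 genes together made up 464 to 565 CPM in irradiated and 502 to 529 CPM in untreated glands, with overlapping ranges. Glul alone gave 35.7% to 43.3% of that sum in irradiated and 41.0% to 45.5% in untreated glands.

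The design sets irradiated against untreated glands, which asks whether these transcripts differed after radiation. None of the 9 genes passed an adjusted p of 0.05 by edgeR's quasi-likelihood test, where 1.00% of the 12885 genes tested passed, 0.652% higher and 0.349% lower. DESeq2 and limma-voom also called 0 of the 9, and at an unadjusted p under 0.05 edgeR gave 2, Ass1 and Slc1a5, beside 1929 of the genes tested. These 2 were also the genes whose groups did not overlap: Ass1 stood higher and Slc1a5 lower in every irradiated library. Of all genes tested 21.2% had groups that did not overlap, 10.6% in each direction. The median log2 fold change was 0.15 over the 9 genes and -0.01 over all genes, whose quartiles lay at -0.19 and 0.19. Scaling by library totals alone shifted the median of all genes to 0.14, and 92.2% of its calls were higher, against 65.1% with TMM.

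**Figure D1:**
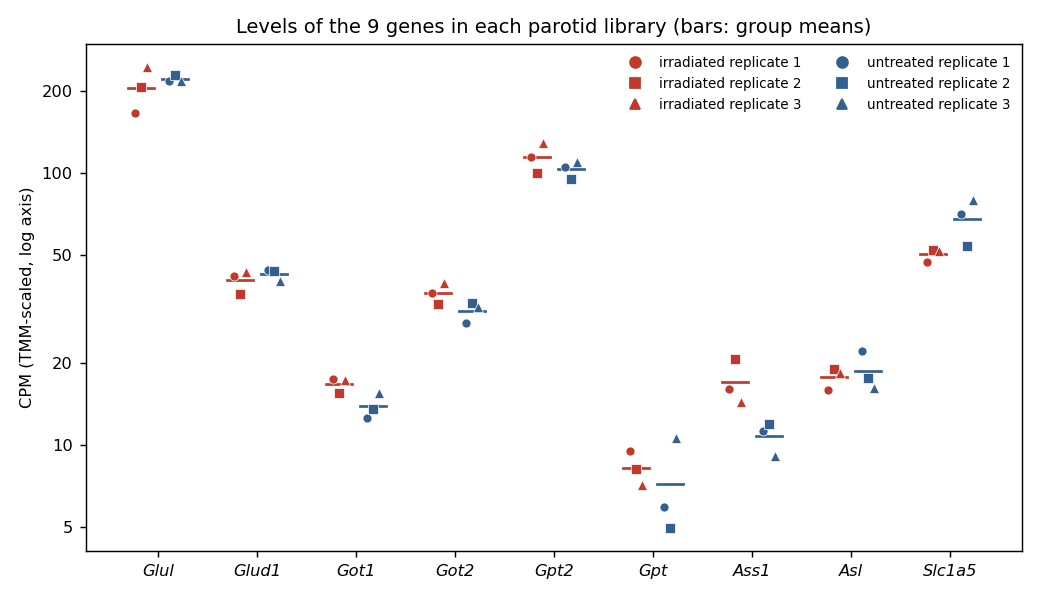
Levels of the 9 genes in CPM on a log axis, with 1 point per library, irradiated left of untreated, and bars at the group means (n = 3 each). Ass1 is higher in all 3 irradiated libraries and Slc1a5 lower in all 3, while the other 7 genes overlap between the groups.

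Ass1 (ENSMUSG00000076441; chromosome 2, 31470207 to 31520672, plus strand, build mm10), which commits aspartate and citrulline to arginine, showed the largest difference of the 9. It had 16.0, 20.7 and 14.4 CPM in irradiated replicates 1, 2 and 3, against 11.3, 11.98 and 9.14 CPM in untreated replicates 1, 2 and 3. The lowest irradiated library was above the highest untreated one. The means were 17.1 ± 3.25 CPM in irradiated and 10.8 ± 1.48 CPM in untreated glands (SD, n = 3 each). On the log2 scale irradiated over untreated was 0.65 (SE 0.16, 95% interval 0.32 to 0.99), or 1.57-fold, which narrowly missed the threshold (edgeR adjusted p = 0.0539). Reads were few, at 241, 172 and 167 counts in irradiated and 137 counts in each untreated library.

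The call for Ass1 turned on the settings. The edgeR adjusted p was 0.0395 without irradiated replicate 3, 0.0297 once length and GC of the transcripts were corrected for and 0.0229 with library totals alone. It was 0.184 without irradiated replicate 2, the shallow library with the highest Ass1 level, where the log2 fold change was 0.51. The estimate was positive in all 16 alternatives, between 0.51 and 0.82, and passed in 6 of them.

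**Figure D2:**
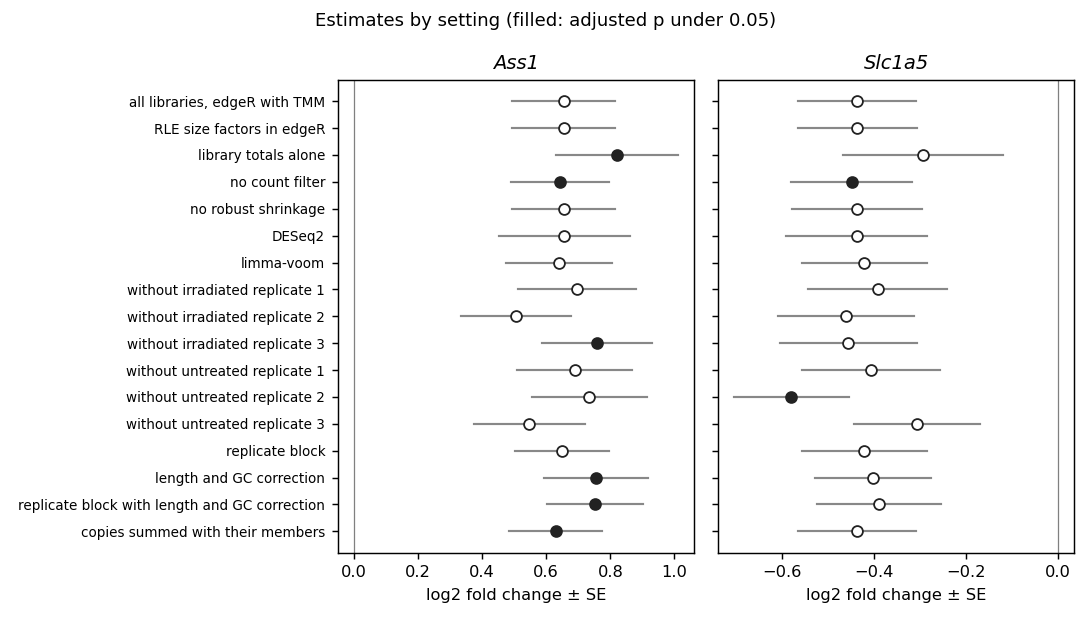
Log2 fold changes of Ass1 and Slc1a5, irradiated over untreated, with the SE, under the edgeR fit and 16 alternatives. Filled points passed an adjusted p of 0.05. Ass1 lies between 0.51 and 0.82 and Slc1a5 between -0.58 and -0.29, and most points of both genes are open.

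Ass1 has a near-identical copy, Gm5424 on chromosome 10, annotated as a processed pseudogene. Stretches of at least 100 bases at 95% identity or more covered 73.1% of the longest Ass1 transcript, so reads there could be set aside as aligning to more than 1 place, or be counted for either locus. Gm5424 itself had 7.12, 5.77 and 4.32 CPM in irradiated and 3.13, 4.90 and 3.74 CPM in untreated replicates 1, 2 and 3, with overlapping groups. Its log2 fold change was 0.56 (SE 0.26, edgeR adjusted p = 0.31). With the counts of both loci summed, an alternative chosen after seeing the data, the log2 fold change was 0.63 (SE 0.15) and the edgeR adjusted p was 0.0386. The share of reads aligned to more than 1 place was 13.3%, 18.4% and 13.3% in irradiated and 13.6%, 15.6% and 16.0% in untreated libraries, and its part in the Ass1 difference was not tested.

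Asl (ENSMUSG00000025533; chromosome 5, 130011258 to 130029247, minus strand), the next enzyme of the same route, showed no separation of the groups. It had 16.0, 19.1 and 18.4 CPM in irradiated and 22.2, 17.7 and 16.2 CPM in untreated replicates 1, 2 and 3. The groups overlapped, with the highest value in untreated replicate 1. The log2 fold change was -0.07 (SE 0.14, 95% interval -0.36 to 0.22; edgeR adjusted p = 0.863), and its sign turned with library totals alone and without untreated replicate 1 or irradiated replicate 1.

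Slc1a5 (ENSMUSG00000001918; chromosome 7, 16781340 to 16798274, plus strand), the sodium-dependent carrier that brings in glutamine and other neutral amino acids, had 47.1, 52.1 and 51.5 CPM in irradiated replicates 1, 2 and 3. The untreated libraries had 70.8, 53.8 and 79.2 CPM. The irradiated libraries lay close together, whereas the untreated ones were spread, with untreated replicate 2 just above the highest irradiated library. The means were 50.3 ± 2.71 CPM in irradiated and 67.9 ± 12.97 CPM in untreated glands (SD, n = 3 each). This gave a log2 fold change of -0.44 (SE 0.13, 95% interval -0.70 to -0.17; edgeR adjusted p = 0.103). It passed in 2 of 16 alternatives, without untreated replicate 2 (-0.58, edgeR adjusted p = 0.0480) and with no count filter, and it was negative in all of them. Without untreated replicate 3 it was -0.31 (edgeR adjusted p = 0.344), and with library totals alone -0.29.

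Glul (ENSMUSG00000026473; chromosome 1, 153899944 to 153909723, plus strand), glutamine synthetase, was the most abundant of the 9 genes, with 98.8% of the genes tested below its mean CPM. It had 165, 206 and 245 CPM in irradiated replicates 1, 2 and 3, against 218, 229 and 217 CPM in untreated replicates 1, 2 and 3. The untreated libraries agreed closely, with a coefficient of variation of 2.92%, while the irradiated ones spread to both sides of them, at 19.3%. The log2 fold change was -0.11 (SE 0.14, 95% interval -0.39 to 0.18; edgeR adjusted p = 0.764). It was 0.03 without irradiated replicate 1 and 0.04 with library totals alone, so no direction held. Near-identical stretches of 2 other annotated genes covered 44.3% of the longest Glul transcript, so reads there could be set aside. Of these, Teddm2 overlaps Glul exons on the opposite strand. The other, Glns-ps1, is a processed pseudogene on chromosome 11. Glns-ps1 took 8.32 to 10.6 CPM in irradiated and 11.1 to 12.3 CPM in untreated libraries. Adding the counts of Glns-ps1 gave -0.11 for Glul.

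Glud1 (ENSMUSG00000021794; chromosome 14, 34310727 to 34345265, plus strand), which feeds glutamate carbon to the citric acid cycle, had 41.9, 36.1 and 43.4 CPM in irradiated replicates 1, 2 and 3. The untreated libraries had 44.0, 43.5 and 40.2 CPM. Untreated replicate 3 lay inside the irradiated range and the other untreated libraries just above it. The log2 fold change was -0.07 (SE 0.11, 95% interval -0.30 to 0.16, edgeR adjusted p = 0.818). Its sign turned with library totals alone and without irradiated replicate 2. Near-identical stretches of 2 other annotated genes covered 27.8% of the longest Glud1 transcript, and each of those genes held at most 14 counts in any library. How many Glud1 reads were set aside there is not known.

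All 4 aminotransferase genes had positive estimates that did not pass. Got1 (ENSMUSG00000025190; chromosome 19, 43499752 to 43524605, minus strand) had 17.5, 15.5 and 17.4 CPM in irradiated and 12.6, 13.6 and 15.6 CPM in untreated replicates 1, 2 and 3. The groups touched only between irradiated replicate 2 and untreated replicate 3. Its log2 fold change was 0.27 (SE 0.14, 95% interval -0.01 to 0.56; edgeR adjusted p = 0.36). Got2 (ENSMUSG00000031672; chromosome 8, 95864134 to 95888547, minus strand) had 36.4, 33.0 and 39.5 CPM in irradiated and 28.1, 33.3 and 32.1 CPM in untreated replicates 1, 2 and 3. Irradiated replicate 2 was again the one inside the untreated range, and the log2 fold change was 0.22 (SE 0.11, 95% interval -0.02 to 0.46; edgeR adjusted p = 0.383). Near-identical stretches of 3 other annotated genes covered 72.5% of the longest Got2 transcript, and each of those genes held at most 7 counts in any library. Gm45760, among them, overlaps Got2 exons on the opposite strand and is not a copy elsewhere. Reads aligning to more than 1 place could be set aside, so these counts do not show how many Got2 reads were lost.

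Gpt2 (ENSMUSG00000031700; chromosome 8, 85492576 to 85527560, plus strand), the mitochondrial alanine aminotransferase, was the second most abundant of the 9 genes. It had 114, 99.8 and 129 CPM in irradiated and 105, 94.9 and 109 CPM in untreated replicates 1, 2 and 3, with overlapping groups. Its estimate was 0.15 on the log2 scale (SE 0.12, 95% interval -0.10 to 0.39; edgeR adjusted p = 0.606). Gpt (ENSMUSG00000022546; chromosome 15, 76695716 to 76699686, plus strand), its cytosolic counterpart, was the least abundant, at 9.52, 8.18 and 7.17 CPM in irradiated and 5.92, 4.98 and 10.7 CPM in untreated replicates 1, 2 and 3. Untreated replicate 3 was the highest of all 6 libraries and gave the untreated group a coefficient of variation of 42.4%, the widest of the 9 genes in either group. Irradiated over untreated was 0.19 on the log2 scale (SE 0.25, 95% interval -0.35 to 0.74; edgeR adjusted p = 0.778), and it ranged from -0.01 without untreated replicate 2 to 0.61 without untreated replicate 3. That library also had the highest sum of 9 fat cell markers, which was 248.7 to 402 CPM in the irradiated libraries and 386, 327 and 618 CPM in untreated replicates 1, 2 and 3. All 9 fat markers were detected, and their part in the spread of Gpt was not tested.

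**Figure D3:**
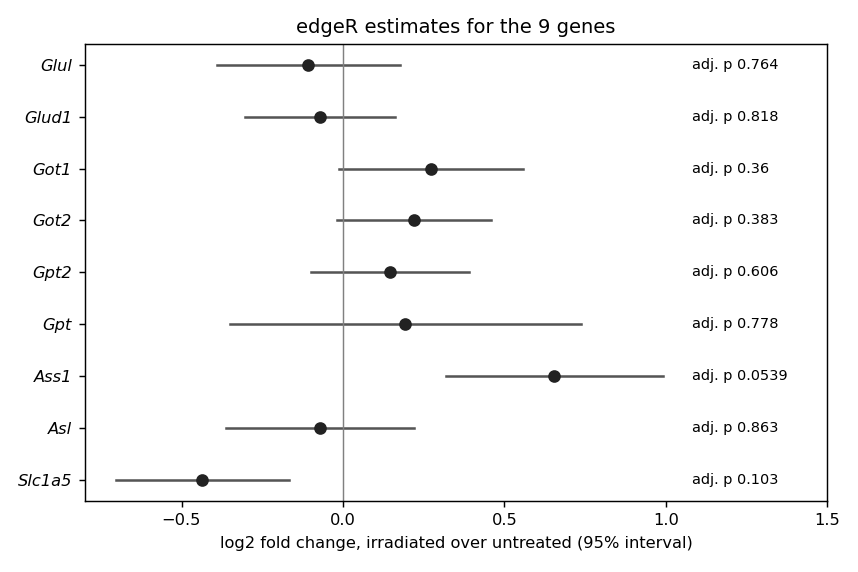
Log2 fold changes of the 9 genes, irradiated over untreated, as points with 95% intervals from edgeR (n = 3 each) and the adjusted p beside each. The intervals of Ass1 and Slc1a5 lie clear of 0 before adjustment, and the other 7 include 0.

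Set on a scale per length, CPM per kilobase of merged exons, the order of levels in irradiated glands began with Glul at 61.8 ± 11.9, Gpt2 at 20.2 ± 2.56 and Slc1a5 at 12.04 ± 0.649 (SD, n = 3), each clear of the next. In untreated glands Glul stood at 66.6 ± 1.95, Gpt2 at 18.3 ± 1.33 and Slc1a5 at 16.3 ± 3.11 (SD, n = 3), and the libraries of Gpt2 and Slc1a5 overlapped. Glud1 followed at 9.62 ± 0.923 in irradiated and 10.1 ± 0.491 in untreated glands. Below it came Got2, Ass1 and Got1 in irradiated glands, at 7.52, 7.06 and 6.61, and Got2, Got1 and Ass1 in untreated glands, at 6.46, 5.48 and 4.47. Neighbours among these 3 overlapped in either group. Asl and Gpt were last, at 3.69 and 2.82 in irradiated and 3.87 and 2.45 in untreated glands. Ass1 stood clear of Asl in irradiated glands, with Got1 between them, and overlapped it in untreated ones. The middle and lower ranks depended on the length used, since with the longest transcript of each gene Got2 stood above Glud1 in irradiated glands and Asl above Got1 and Ass1 in untreated glands.

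Ratios between partner genes within a library do not depend on library scaling. Ass1 over Asl was the ratio that separated the groups, at 1.00, 1.082 and 0.784 in irradiated replicates 1, 2 and 3, against 0.507, 0.678 and 0.564 in untreated replicates 1, 2 and 3. The difference on the log2 scale was 0.71, with an exact two-sided permutation p of 0.1, the smallest that 3 against 3 libraries allow, and 0.5 after Benjamini-Hochberg adjustment over the 5 ratios computed. Got1 over Got2 stayed within a narrow band, 0.440 to 0.482 in irradiated and 0.407 to 0.486 in untreated libraries, a log2 difference of 0.06 (exact permutation p = 0.7). Gpt2 over Gpt was 11.99 to 17.96 in irradiated and 10.2 to 19.0 in untreated libraries (exact permutation p = 0.9). Glul over Glud1 was 3.94 to 5.72 in irradiated and 4.96 to 5.39 in untreated libraries (exact permutation p = 1.0). The adjusted value of each of these 3 ratios was 1.0.

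**Figure D4:**
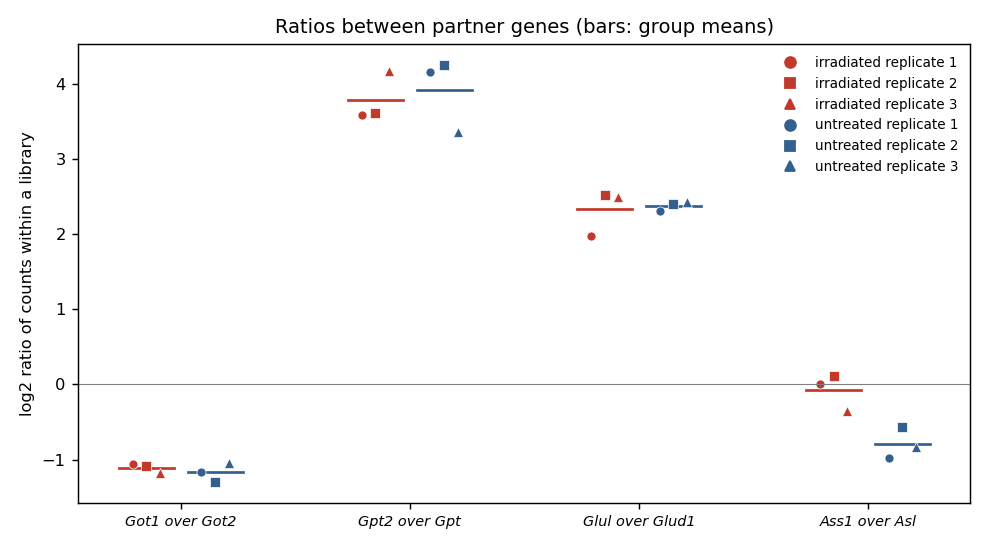
Log2 ratios of counts between partner genes in each library, irradiated left of untreated, with bars at the group means (n = 3 each). Ass1 over Asl is higher in all 3 irradiated libraries, and the other 3 ratios overlap between the groups.

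The wider pathway showed 1 call. The 7 lists around these enzymes also hold members where they belong to the route. Of the 102 other genes in them, 78 had enough reads to be tested, and their median log2 fold change was -0.02. The edgeR test called 1 of these higher and 0 lower, and 77 did not pass. The share called was near the 1.00% called among all genes tested. Of the 78, 15.4% had groups that did not overlap, against 21.2% of all genes. The call was Slc38a1, a sodium-coupled carrier of glutamine and other small neutral amino acids, which rose to 57.9, 47.0 and 58.4 CPM in irradiated replicates 1, 2 and 3, against 35.5, 37.9 and 40.8 CPM in untreated replicates 1, 2 and 3. Every irradiated library was above every untreated one. Its log2 fold change was 0.52 (SE 0.12; edgeR adjusted p = 0.0326). The call held in 6 of 16 alternatives and was lost when any library other than irradiated replicate 2 was left out, with edgeR adjusted p values of 0.0545 to 0.168. The log2 fold change in those fits was 0.47 to 0.58, near the 0.52 with all libraries. It was also lost with the length and GC correction, at 0.12, and with limma-voom, at 0.0891.

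Slc38a1 and Slc1a5, which both carry glutamine, thus had estimates of opposite sign. Among the 20 amino acid carriers tested, Slc1a5 included, 19 did not pass and the median log2 fold change was -0.04. Of the 9 glutamine, glutamate and proline enzymes tested, Glul and Glud1 included, none passed, with a median of 0.00. Aldh18a1, which starts proline synthesis from glutamate, had 98.2 ± 18.7 CPM in irradiated and 81.1 ± 3.25 CPM in untreated glands (SD, n = 3 each; log2 fold change 0.28, edgeR adjusted p = 0.302). None of 9 aminotransferases, the 4 Got and Gpt genes included, passed, with a median of 0.01. Bcat2, the mitochondrial branched-chain aminotransferase, had 62.5 ± 7.80 CPM in irradiated and 81.0 ± 6.79 CPM in untreated glands (SD, n = 3 each; log2 fold change -0.37, edgeR adjusted p = 0.115). It was the aminotransferase with the smallest p, and its sign was opposite to that of the Got and Gpt genes.

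None of 16 aspartate, asparagine and amide nitrogen enzymes passed, with a median of 0.00. The smallest p values belonged to Gfpt1, which uses glutamine in hexosamine synthesis, at a log2 fold change of 0.32 (edgeR adjusted p = 0.288), and Ppat, which uses it in purine synthesis, at 0.33 (edgeR adjusted p = 0.433). None of 10 arginine and urea cycle genes, Ass1 and Asl included, passed, with a median of 0.08. After Ass1 the smallest p there was that of Odc1, ornithine decarboxylase of polyamine synthesis, at 0.21 (edgeR adjusted p = 0.379). The urea cycle genes Otc and Cps1 had no count in any library; they encode the mitochondrial steps that precede Ass1 in liver. Arg1, an arginase, had a mean of 93.1 CPM in irradiated and 103 CPM in untreated glands.

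None of 11 genes of the malate-aspartate shuttle and mitochondrial carriers, Got1 and Got2 included, passed, with a median of -0.01. Slc25a10, the dicarboxylate carrier, stood at -0.35 (edgeR adjusted p = 0.157) and Mpc2, a subunit of the pyruvate carrier, at -0.27 (edgeR adjusted p = 0.266). Mdh1 and Mdh2, the malate dehydrogenases that work with Got1 and Got2 in the shuttle, stood at -0.06 and -0.01. None of 16 amino acid response genes passed, with a median of -0.10, 11 at a negative and 5 at a positive estimate. Aldh1l2, a mitochondrial folate enzyme, stood at 0.40 (edgeR adjusted p = 0.0922). Sesn2, a sestrin induced by p53 and by amino acid shortage, had 6.79, 9.86 and 7.51 CPM in irradiated and 6.01, 3.85 and 2.47 CPM in untreated replicates 1, 2 and 3. It had the largest positive estimate of the list, 0.97 (SE 0.28, edgeR adjusted p = 0.104), and Atf4, the transcription factor of that response, stood at -0.26 (edgeR adjusted p = 0.316). The most negative estimates were those of Trib3, Chac1 and Atf5, at -1.12, -1.04 and -0.87 (edgeR adjusted p = 0.686, 0.614 and 0.320). Sesn2 was called in 3 of 16 alternatives, and Aldh18a1, Gfpt1 and Aldh1l2 in 2 each.

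**Figure D5:**
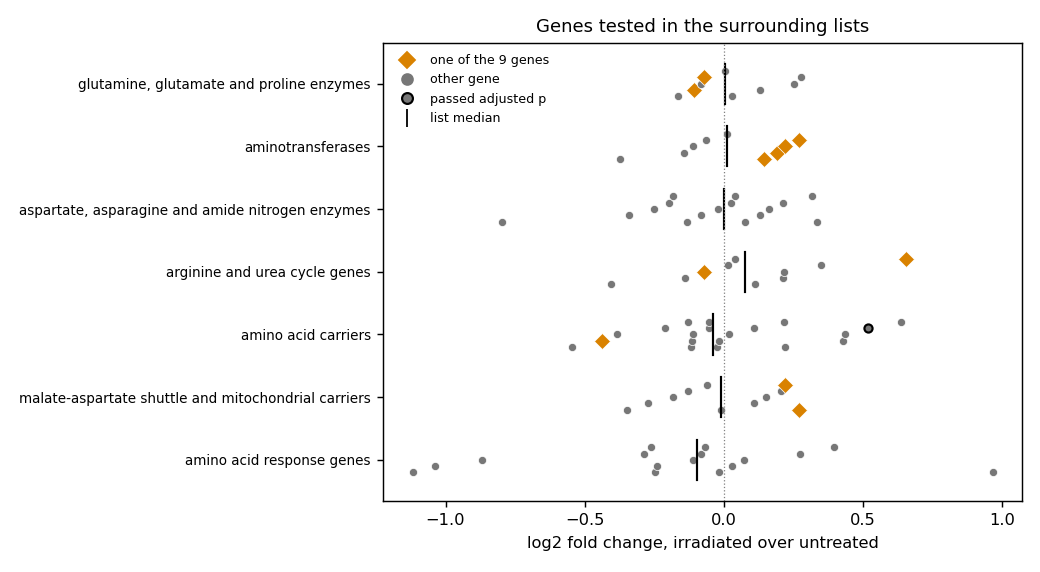
Log2 fold changes, irradiated over untreated, of every tested gene in the 7 lists, with orange diamonds for the 9 genes, grey points for others, vertical bars at list medians and a black outline where the adjusted p passed 0.05. List medians lie between -0.10 and 0.08, and 1 point, Slc38a1, carries the outline.

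The genes most like each of the 3 members with the smallest p were sought by the root mean square difference of log2 CPM, centred on each gene's mean, over the 6 libraries. Nearest to Ass1 were Zfp942, at a difference of 0.08, and Irf5, at 0.09, where the median over all genes was 0.44. Nearest to Slc1a5 were Fau, at 0.06, and Kcnip3, at 0.07, with a median of 0.35. Nearest to Got1 were Ubl3 and Mapre1, at 0.04 each, with a median of 0.29. None of these 6 genes passed the edgeR test, and 11903 genes were searched over only these 6 libraries.

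Lymphocyte markers stood higher in the irradiated libraries, as Ass1 and Slc38a1 did, and 1 T cell and 1 B cell marker passed the edgeR test. The 9 T cell markers summed to 34.6 to 46.7 CPM in irradiated and 1.84 to 15.7 CPM in untreated libraries, 8 of 9 had every irradiated library above every untreated one, and none was at 0 throughout. The 8 B cell markers summed to 37.8 to 39.2 CPM in irradiated and 0.525 to 18.5 CPM in untreated libraries, with 7 of 7 tested markers separated. Across all genes tested, 10.6% had every irradiated library above every untreated one and 0.652% were called higher. Untreated replicate 2 had the lowest sums of both lists. Its Ass1 level was 11.98 CPM, against 11.3 and 9.14 CPM in untreated replicates 1 and 3, on 137 counts in each. Its Slc38a1 level was the middle of the untreated group. The part of lymphocytes in either difference was not tested.

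Several cell type markers stood lower in the irradiated libraries, as Slc1a5 did. Among the 10 acinar markers Aqp5, Bhlha15, Pip and Car6 were lower in every irradiated library, with a list median log2 fold change of -0.20. Car6, a secreted carbonic anhydrase, fell to 8819 ± 2241 CPM in irradiated glands, against 15272 ± 1091 CPM in untreated glands (SD, n = 3 each; log2 fold change -0.79, SE 0.18, edgeR adjusted p = 0.0329). No single marker of the muscle, duct and macrophage lists passed the edgeR test. The 10 skeletal muscle markers summed to 199 to 619 CPM in irradiated and 626 to 789 CPM in untreated libraries, with 5 of 10 markers lower in every irradiated library. The 12 duct markers summed to 1824 to 2088 CPM in irradiated and 2123 to 2462 CPM in untreated libraries, and the 8 macrophage markers to 95.6 to 105 CPM in irradiated and 107 to 122 CPM in untreated libraries. Of these, 2 of 12 duct and 4 of 8 macrophage markers were lower in every irradiated library, and none of the markers was at 0 throughout. Across all genes tested, 10.6% were lower in every irradiated library and 0.349% were called lower. The duct markers were not far above that 10.6%. Within the untreated group replicate 2 had the lowest Slc1a5 level and the lowest sum of fat markers. It had the highest acinar and duct sums and the middle muscle, macrophage and fibroblast sums. The part of these cells in the Slc1a5 difference was not tested. Sums of the fat, endothelial, fibroblast, glial and myoepithelial markers overlapped between the groups. Estimates were negative for 8 of 9 fat, 8 of 8 fibroblast, 6 of 8 myoepithelial, 4 of 5 glial and 4 of 8 endothelial markers tested. Of these lists, 2 fibroblast, 1 myoepithelial, 1 glial, 0 fat and 0 endothelial markers were lower in every irradiated library.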

How the data were processed

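The authors deposited whole-number read counts per Ensembl gene, 1 table per sample. Tools bcl2fastq, HISAT2 and HTSeq and the build mm10 are named in the submitters' processing notes, and libraries were made with a stranded total RNA kit, per the labels' protocols. Versions, annotation release and the strand setting are not given in the sources used here. Rows naming no gene held 32.4% to 40.7% of reads and entered neither library sizes nor tests.

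Symbols, coordinates and lengths came from an mm10 annotation, which matched 52489 of 52636 genes. The test was edgeR 4.0.16 in R 4.3.3 (quasi-likelihood, robust, TMM, filterByExpr with a minimum count of 10, Benjamini-Hochberg adjustment over 12885 genes, threshold 0.05). Each SE was the log2 fold change divided by the square root of F, and 95% intervals are not adjusted for the number of genes. DESeq2 1.42.0, limma-voom (limma 3.58.1) and the other alternatives are in the closing section. The length and GC correction used values for 12867 genes. Log2 CPM used a prior count of 2. The fitting procedure was tested on simulated data. Near-identical copies were sought by sequence among annotated transcripts (at least 95% identity over 100 bases).

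Members, lists and tests were chosen with earlier results of these data known. Named were all 9 members, every called gene of a list or, where a list had none, its 2 smallest p, and the 2 nearest genes of 3 members. A further gene the rule names, and the ratio that uses it, are not reported here. Atf4, Trib3, Chac1, Atf5, Arg1, Mdh1, Mdh2, Otc, Cps1 and Prol1 were named after their values were seen. Whether samples were separate mice is not in the labels, and the spread behind each p-value may thus be technical. No 2 libraries agreed within sampling noise (chi-square per degree of freedom at least 12.8). Low counts, 57 to 241 for Gpt and Ass1, limit precision, and p-values cover counting error and spread between libraries only.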

Additional observations from a re-analysis of the deposited data

How the results depend on the processing

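The 129 genes called became 282 with library totals alone, 518 with no count filter, 26 without robust shrinkage, 25 with limma-voom and 47 to 150 when 1 library was left out (47 without irradiated replicate 1, 67 without untreated replicate 2 and 75 without untreated replicate 3). DESeq2 called 191 genes, edgeR with RLE size factors, another scaling, 127, and edgeR with the length and GC correction 112. Of the 9 genes 0 were called, against 1 with library totals alone, 2 with no count filter, 1 with the length and GC correction, 1 with that correction and the replicate block, 1 with copies summed with their members (chosen after seeing the data), and 0 to 1 when 1 library was left out. The called gene was Ass1, except Slc1a5 without untreated replicate 2 and both with no count filter. With the replicate number as a block 53 genes were called, and 61 with the block and the length and GC correction. The labels state no pairing of samples with the same number. The correlations of their deviations were 0.02, -0.11 and -0.11 for pairs 1, 2 and 3, against -0.03 to 0.12 for pairs of unlike number. With 3 libraries per group these values do not decide whether samples were paired. Under the block Slc38a1 had an edgeR adjusted p of 0.0942, and no other of the 20 pathway genes that the rule names changed its call.

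With library totals alone the log2 fold changes of Glul, Glud1 and Asl were 0.040, 0.073 and 0.079, the reverse of their sign with TMM, beside a median of all genes at 0.14. Leaving out 1 library gave ranges of -0.25 to 0.027 for Glul, -0.12 to 0.0062 for Glud1, -0.0074 to 0.61 for Gpt and -0.16 to 0.070 for Asl (0.0057 without irradiated replicate 1). For the log2 ratios it gave -0.0086 to 0.12 for Got1 over Got2, -0.42 to 0.031 for Gpt2 over Gpt, -0.14 to 0.13 for Glul over Glud1 and 0.62 to 0.85 for Ass1 over Asl. Of the 20 pathway genes that the rule names, 16 kept their sign in all 16 alternatives. The cause of each change was not tested.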
